A study of Mus musculus with 56 samples.

Results

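Whole front paws of mice with collagen-induced arthritis were compared between animals with a high and animals with a low level of Dbp mRNA, a transcript that rises and falls with the circadian clock. The libraries were chosen by their Dbp FPKM: within each of 4 antibody treatments the 4 with the highest and the 4 with the lowest value were taken, which gave 16 Dbp-high and 16 Dbp-low libraries, 32 of the 56 in the series. The 20 libraries between them, 5 per treatment, did not enter the comparison and were used as a separate set. Dbp itself was used to choose the libraries, so its values are a description and it was left out of every test. Sphk2, which overlaps Dbp on the other strand, was left out as well.

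All animals were male DBA/1 mice, each giving 1 library from its front paws. Arthritis was raised with chicken type II collagen given on days 1 and 21, antibodies were injected into the peritoneum at 2 times a week for 5 weeks from day 21, and paws were taken on day 91. The groups of 13 mice received anti-TNF antibody (clone XT3.11, 30 mg/kg), anti-IL-6 antibody (clone MP5-20F3, 10 mg/kg), both antibodies at these doses, or isotype control antibody (30 mg/kg), and 4 further mice had no arthritis (no CIA) and entered no test. The labels give no hour at which any paw was taken and no age of the mice. A whole paw holds skin, muscle, bone, cartilage, nerve and blood cells, so fewer cells of a type and less RNA per cell cannot be told apart. P-values measure the spread between mice.

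The mammalian clock is a loop of transcription factors. CLOCK or NPAS2 pairs with BMAL1, the product of Arntl, and switches on genes that carry E-boxes, among them the Per, Cry, Nr1d1, Nr1d2, Ciart, Dbp and Tef genes. PER and CRY proteins then block the activators, the REV-ERB receptors (Nr1d1, Nr1d2) repress Arntl and Nfil3 through ROR elements, and DBP, TEF and HLF compete with the repressor NFIL3 for D-boxes, so that Dbp and Tef peak at a phase nearly opposite to Arntl, Npas2 and Nfil3.

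The 250 bases upstream of the start site are shown for 4 of the clock genes described below, each from RefSeq on build GRCm38.p6 and written 5′ to 3′ on the strand of the gene, to show 1 example or more of each of the 3 motifs. Capitals mark the motif. Ciart lies on the minus strand with its window at chr3:95882229-95882478, and the capitals are 3 E-boxes (CACGTG). Tef lies on the plus strand, chr15:81802423-81802672, with 1 E-box. Per3 lies on the minus strand, chr4:151044666-151044915, with 2 D-boxes (TTANGTAA). Nfil3 lies on the minus strand, chr13:52981040-52981289, and the capitals are 1 ROR element (TAGGTCA, here as its reverse complement).
Ciart: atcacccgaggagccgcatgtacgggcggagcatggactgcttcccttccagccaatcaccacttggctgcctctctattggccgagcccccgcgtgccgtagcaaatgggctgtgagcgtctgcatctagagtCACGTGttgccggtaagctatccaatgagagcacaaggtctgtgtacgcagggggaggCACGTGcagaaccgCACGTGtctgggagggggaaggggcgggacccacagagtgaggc
Tef: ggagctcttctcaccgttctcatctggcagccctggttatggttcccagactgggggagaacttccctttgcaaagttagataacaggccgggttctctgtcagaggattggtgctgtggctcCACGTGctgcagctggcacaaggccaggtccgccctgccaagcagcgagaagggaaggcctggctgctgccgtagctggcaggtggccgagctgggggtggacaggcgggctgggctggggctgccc
Per3: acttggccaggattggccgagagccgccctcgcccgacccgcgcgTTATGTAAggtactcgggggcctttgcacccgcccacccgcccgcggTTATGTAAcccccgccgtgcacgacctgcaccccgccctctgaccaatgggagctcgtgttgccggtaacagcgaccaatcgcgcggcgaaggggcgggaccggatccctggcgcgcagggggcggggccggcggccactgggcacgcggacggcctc
Nfil3: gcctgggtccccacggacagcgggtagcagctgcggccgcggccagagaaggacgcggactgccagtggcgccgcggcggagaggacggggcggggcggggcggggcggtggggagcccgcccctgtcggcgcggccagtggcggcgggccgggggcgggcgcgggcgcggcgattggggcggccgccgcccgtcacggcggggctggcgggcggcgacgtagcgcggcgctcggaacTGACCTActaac

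Both strands of these 250 bases were searched, and CACGTG, its own reverse complement, was counted once. Of 32851 windows of the same length and place, with several for genes with more than 1 start site, 6.02% held an E-box, 2.06% a D-box and 2.23% a ROR element. Among the 10 clock genes that passed the test below, 3 had an E-box, 1 a D-box and 1 a ROR element in the window of at least 1 start site. A match is a description of these letters and not a measured binding site.

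The level of Dbp that sorted the libraries was set within each treatment, and its scale differed between treatments. Levels are in FPKM, which scales fragment number by transcript length and by library depth. Under anti-TNF antibody the Dbp-high libraries lay between 48.6 and 63.3 FPKM and the Dbp-low libraries between 18.3 and 22.7. Under anti-IL-6 antibody they lay between 19.5 and 42.8 (Dbp-high) and between 5.77 and 13.0 (Dbp-low). For the combination the ranges were 62.8 to 114 (Dbp-high) and 18.5 to 40.3 (Dbp-low), and for the isotype control 74.9 to 118 (Dbp-high) and 35.6 to 46.0 (Dbp-low). A Dbp-high paw under anti-IL-6 antibody could therefore hold no more Dbp than a Dbp-low paw under the isotype control. The middle libraries just beyond the thresholds reached 45.3 and 24.4 FPKM under anti-TNF, 19.1 and 13.7 under anti-IL-6, 60.9 and 47.6 in the combination, and 67.1 and 60.8 in the isotype group, the value next to the Dbp-high libraries given before the value next to the Dbp-low ones. On the log2(FPKM + 1) scale Dbp differed by 1.36 (anti-TNF), 1.63 (anti-IL-6), 1.57 (combination) and 1.09 (isotype) between the chosen libraries. The 4 paws without arthritis held 64.9 to 145 FPKM.

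**Figure D1:**
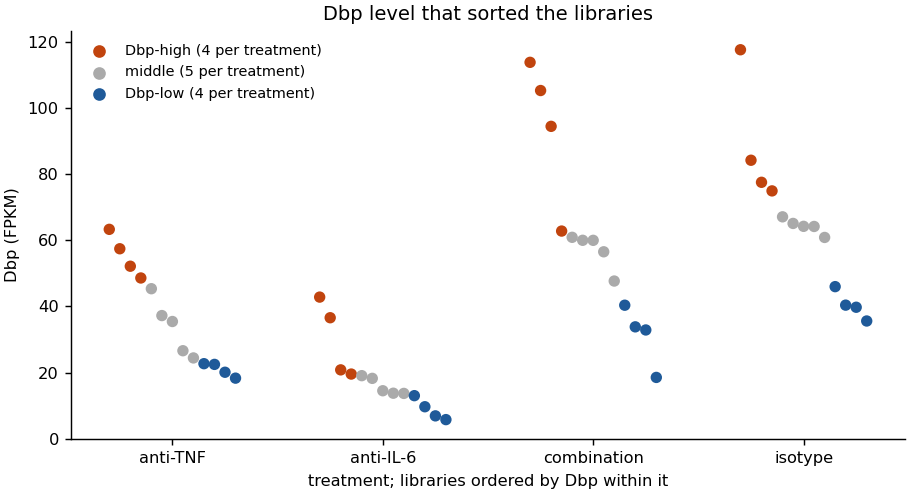
Dbp level in FPKM (vertical axis) of every library of each treatment, ordered within the treatment from high to low; colours show the 4 Dbp-high, 5 middle and 4 Dbp-low libraries. The anti-IL-6 libraries lie lowest, with Dbp-high values of 19.5 to 42.8 FPKM.

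Depth, read from the steps of low values, was 45.6 ± 3.51 M fragments (M for mega) in Dbp-high and 47.1 ± 3.87 M in Dbp-low libraries (SD, n = 16 each). The highest correlation between any pair of the 32 libraries was 0.991, and no library was counted as a repeat of another. Genes with a mean of at least 1 FPKM over the 32 libraries were tested, 14282 in all, by limma on log2(FPKM + 1) with treatment as a covariate. At a Benjamini-Hochberg adjusted p under 0.05, 90 genes were called (0.63%), 63 higher (0.441%) and 27 lower (0.189%) in Dbp-high paws. The median difference over all genes was -0.01, and 3301 genes (23.1%) had an unadjusted p under 0.05. The count of calls depended strongly on single libraries: it ranged from 8 to 665 over the 32 fits that left out 1 library each, and moved by over 1.5 times in 29 of them. The genes that stayed called in all of these fits are described first. These were Nr1d1, Tef, Ciart, Per3, Nfil3, Angptl7, Rian and Fabp6, the 8 of the 90 that were called in every one of the 32 fits. They did not stay called in all other settings. Of 18 other alternative fits Nfil3 was called in 15, Tef and Nr1d1 in 14 each, Ciart and Per3 in 13 each, Angptl7 in 11 and Rian in 9. Without the isotype treatment 1 clock gene and 0 other genes of the 90 stayed called. These counts were 4 and 0 without anti-IL-6, 5 and 0 with 3 libraries per level and treatment, and 2 and 0 with 6. With the index run of the libraries as a covariate, a stretch of index numbers in the titles, 0 genes were called by limma and 1201 had an unadjusted p below 0.05, with adjusted p of 0.118 for Tef, 0.121 for Per3, Nfil3 and Rian, 0.200 for Nr1d1, 0.214 for Ciart and 0.455 for Angptl7.

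Of 27 listed clock genes 25 were tested, and 10 of them were called, 8 higher and 2 lower in Dbp-high paws. The clock's output factors and REV-ERB receptors were higher and the D-box repressor Nfil3 was lower. Rorb and Fbxl21 were not tested because their mean was under 1 FPKM. These members and lists were chosen with earlier results of these data known, so the count is a description beside the 0.63% of all genes called.

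Nr1d1 encodes REV-ERB alpha, the nuclear receptor that represses Arntl (chr11:98767932-98775333 on GRCm38). Its level was 99.8, 91.9, 92.7 and 104 FPKM in the Dbp-high libraries under anti-TNF antibody, against 52.6, 44.8, 78.3 and 89.2 FPKM in the Dbp-low libraries. Under anti-IL-6 antibody it was 66.03, 104, 66.3 and 76.4 FPKM in Dbp-high paws, against 32.2, 30.7, 57.5 and 22.3 FPKM in Dbp-low paws. The combination gave 135, 88.8, 114 and 122 FPKM in Dbp-high paws, against 51.6, 85.98, 82.2 and 83.1 FPKM in Dbp-low paws. In the isotype group the 4 Dbp-high values of 124, 104, 109 and 118 FPKM again lay above the 4 Dbp-low values of 97.3, 66.3, 60.8 and 58.6 FPKM. The highest Dbp-low value lay below the lowest Dbp-high value in every treatment, which was so for Nr1d1 alone among the 14282 genes tested (0.007%), although the 16 and 16 libraries overlapped when treatments were put together. Within a single treatment such separation was seen for 0.805% (anti-TNF), 7.27% (anti-IL-6), 1.76% (combination) and 3.72% (isotype) of all genes. The difference was 0.77 ± 0.119 on the log2(FPKM + 1) scale (SE, adjusted p = 0.00207). Nr1d1 overlaps the last part of Thra on the other strand, by 1075 bases, and the strand setting of the counting was not given in the sources used here.

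Tef, the thyrotroph embryonic factor that binds D-boxes and whose window with an E-box is printed above (gene at chr15:81802421-81826863), ran from 21.9 over a median of 42.9 to 65.02 FPKM in Dbp-high libraries, against 14.5, 28.3 and 39.97 FPKM in Dbp-low libraries. The 4 and 4 libraries did not overlap in anti-IL-6, combination and isotype paws, and overlapped in anti-TNF paws, where 1 Dbp-low library reached 38.9 FPKM. The difference was 0.58 ± 0.0855 (adjusted p = 0.00129). Its relative Hlf was also higher, with 2.29 to 7.14 FPKM in Dbp-high libraries (median 4.02), against 1.11 to 4.18 FPKM in Dbp-low libraries (median 2.77), a difference of 0.42 ± 0.0943 (adjusted p = 0.0373), and its groups overlapped in every treatment.

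Nfil3, the repressor that occupies D-boxes and whose window carries the ROR element shown (gene at chr13:52967209-52981073), went the other way. It ran from 4.76 over a median of 7.98 to 12.1 FPKM in Dbp-high libraries, against 6.42, 13.0 and 26.0 FPKM in Dbp-low libraries. The groups did not overlap in anti-TNF, anti-IL-6 and combination paws. In the isotype group 1 Dbp-low library, at 6.42 FPKM, lay among the Dbp-high values of 4.76 to 8.05 FPKM. The difference was -0.65 ± 0.0951 (adjusted p = 0.00129).

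Ciart encodes CHRONO, which represses the CLOCK and BMAL1 pair (chr3:95878503-95882251), and its window holds the 3 E-boxes shown. It ran from 3.76 over a median of 9.56 to 20.3 FPKM in Dbp-high libraries, against 1.78, 5.26 and 7.31 FPKM in Dbp-low libraries. The difference was 0.82 ± 0.130 (adjusted p = 0.00217), the widest of the 25 clock genes tested. The groups overlapped only in anti-IL-6 paws, where 1 Dbp-high library had 3.76 FPKM. Ciart lies within the antisense gene C920021L13Rik on the other strand, over 3749 bases.

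Per3, a period gene of the repressor arm with 2 D-boxes in its window (chr4:151003652-151044665), ran from 3.06 over a median of 5.52 to 11.0 FPKM in Dbp-high libraries, against 1.39, 3.83 and 6.196 FPKM in Dbp-low libraries, a difference of 0.52 ± 0.0878 (adjusted p = 0.00461). Per3 lies within Camta1 on the same strand, over 41014 bases, so reads of both genes may have been counted together. The groups of libraries overlapped only in the isotype paws. Without overlap in at least 3 of the 4 treatments were 6 of all genes tested (0.042%), namely Nr1d1, Tef, Nfil3, Ciart, Per3 and Rpap3, and Rpap3 was named after its values were seen. Cry2, a cryptochrome repressor, was higher by 0.35 ± 0.0748 (adjusted p = 0.0346), with medians of 15.3 FPKM in Dbp-high and 12.1 FPKM in Dbp-low libraries. It showed no overlap in 2 treatments, as 0.826% of all genes did in 2 treatments or more.

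Of the remaining called clock genes, Nr1d2, the second REV-ERB receptor, had medians of 13.8 FPKM in Dbp-high and 9.75 FPKM in Dbp-low paws and a difference of 0.44 ± 0.0896 (adjusted p = 0.0346). Bhlhe41, which encodes the E-box repressor DEC2, had medians of 6.36 and 4.64 FPKM in Dbp-high and Dbp-low paws and was higher by 0.44 ± 0.0985 (adjusted p = 0.0373). Npas2, the partner of BMAL1 that can stand in for CLOCK, had medians of 2.71 FPKM in Dbp-high and 3.79 FPKM in Dbp-low paws and differed by -0.48 ± 0.106 (adjusted p = 0.0373). Nr1d2 was called in 22 of the 32 fits that left out a library, Cry2 in 19, Npas2 and Bhlhe41 in 14 each, and Hlf in 13.

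The other 15 tested clock genes did not pass the threshold. Arntl, which encodes BMAL1, had a difference of -0.28 ± 0.0963 (adjusted p = 0.110). It differed by -0.27 under anti-TNF, 0.02 under anti-IL-6, -0.56 in the combination and -0.30 in the isotype group. Arntl was called in 0 of the 32 fits that left out a library and in 2 of the other alternative fits. These gave -0.50 ± 0.0652 with muscle and epidermis scores as covariates (limma, adjusted p = 0.000379) and -0.61 ± 0.0912 with Schwann cell and gland scores (limma, adjusted p = 0.00494). The Schwann cell and gland fit was added after the data were seen, with a gland list written from the called genes, so it supports nothing. Cry1, a late repressor, had -0.22 ± 0.0659 (adjusted p = 0.0894). Per1 and Per2 had 0.31 ± 0.104 (adjusted p = 0.104) and 0.31 ± 0.113 (adjusted p = 0.122), and Arntl2, the paralog of Arntl, 0.28 ± 0.0797 (adjusted p = 0.0808). Arntl2 was called in 4 of the 32 fits that left out a library, and Cry1 in 1 of the 18 other alternative fits. Clock itself had 0.06 ± 0.0891, with a 95% interval from -0.12 to 0.24. The differences of Bhlhe40, Rora, Nampt, Csnk1d, Csnk1e, Btrc and Gsk3b lay between -0.08 (Csnk1d) and 0.30 (Rora), and Bhlhe40 was called with muscle and epidermis scores (0.28 ± 0.0562, adjusted p = 0.0249).

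**Figure D2:**
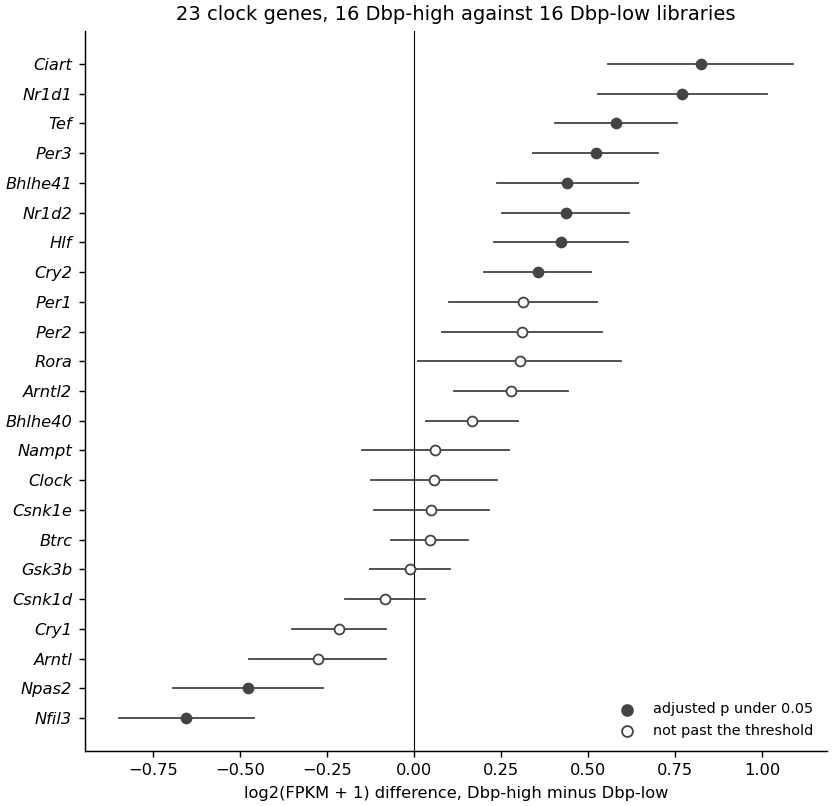
Difference between Dbp-high and Dbp-low libraries on the log2(FPKM + 1) scale (horizontal axis) for 23 of the clock genes tested, with 95% intervals; filled points passed an adjusted p of 0.05. The 10 filled points lie between -0.65 (Nfil3) and 0.82 (Ciart).

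The difference was then set side by side in the 4 treatments to see whether the clock genes followed Dbp in each. For Nr1d1 it was 0.60 under anti-TNF, 1.17 under anti-IL-6, 0.61 in the combination and 0.71 in the isotype group. For Tef the same order gave 0.37, 0.84, 0.53 and 0.58, for Ciart 0.55, 0.81, 0.98 and 0.94, and for Per3 0.42, 0.68, 0.52 and 0.46. Nfil3 gave -0.58, -0.88, -0.56 and -0.60. The sign was the same in all 4 treatments for each of these genes, as it was for all 90 called genes and for 33.3% of all genes tested, a share set by the same contrast. A test of the interaction between Dbp level and treatment (limma, F test over 3 terms) called 0 genes, and 269 (1.88%) had an unadjusted p below 0.05. Its unadjusted p was 0.286 for Nr1d1, 0.263 for Tef, 0.663 for Ciart, 0.765 for Per3 and 0.622 for Nfil3. With 4 against 4 libraries per treatment this does not show that the differences were equal.

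**Figure D3:**
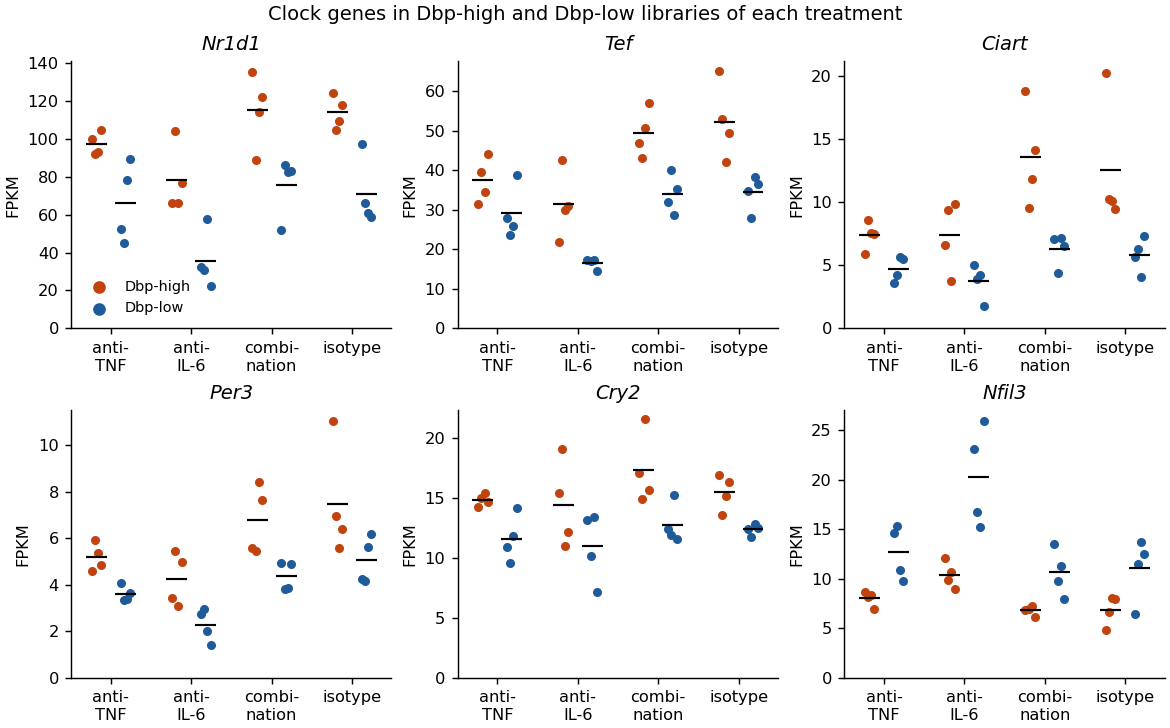
Level in FPKM (vertical axis) of Nr1d1, Tef, Ciart, Per3, Cry2 and Nfil3 in each library of the 4 treatments, with Dbp-high libraries left of Dbp-low libraries; lines are means of 4. Nr1d1 values do not overlap between the groups in any treatment, and Nfil3 lies higher in Dbp-low than in Dbp-high paws.

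Because Dbp was ranked within treatments, the levels of Dbp-high and Dbp-low paws of different treatments came close to each other. Tef averaged 31.3 ± 8.56 FPKM in Dbp-high anti-IL-6 paws, against 34.4 ± 4.52 FPKM in Dbp-low isotype paws, and 65.2 ± 9.86 FPKM in paws without arthritis (SD, n = 4 each). Nfil3 averaged 10.4 ± 1.33 FPKM in Dbp-high anti-IL-6 paws, against 11.0 ± 3.21 FPKM in Dbp-low isotype paws and 6.94 ± 1.29 FPKM in paws without arthritis. Nr1d1 averaged 109 ± 10.6 FPKM without arthritis, within the range of the Dbp-high paws. These values are set side by side without a test.

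The 20 middle libraries, which entered neither group, were looked at for the same genes. The same ranking on Dbp placed them between the groups, so they are not an independent choice. Their mean level lay between the Dbp-high and the Dbp-low mean in all 4 treatments for Nr1d1, Tef, Ciart, Per3, Nfil3, Nr1d2, Cry2 and Bhlhe41, that is for 8 of the 10 called clock genes, for 25 of the 90 called genes (27.8%) and for 770 of all genes tested (5.39%). A wide gap leaves more room for a mean to fall inside it, so the shares are a description. Nr1d1, for example, averaged 97.2 ± 5.97 FPKM in Dbp-high, 79.5 ± 12.2 FPKM in middle and 66.2 ± 21.0 FPKM in Dbp-low paws under anti-TNF antibody, and 78.2 ± 17.8, 58.2 ± 16.4 and 35.7 ± 15.2 FPKM in the same order under anti-IL-6 antibody (SD, n = 4, 5 and 4). Per3 averaged 4.23 ± 1.16, 3.34 ± 0.234 and 2.26 ± 0.703 FPKM in Dbp-high, middle and Dbp-low anti-IL-6 paws.

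Among the middle libraries themselves Dbp varied little, with an SD of 0.222 within treatments on the log2 scale, against 0.834 among the 32 chosen libraries. A slope on log2(Dbp FPKM + 1) with treatment as covariate (limma) called 0 genes there. An unadjusted p below 0.05 was found for 1116 (7.81%), of which 919 slopes (6.43%) were positive and 197 (1.38%) negative. Of the 90 called genes 26 had a slope of the same sign as their difference (28.9%), against 4419 of all 14282 genes (30.9%), and of the 10 called clock genes 5 did. Per3 had a slope of 0.40 ± 0.135 (unadjusted p = 0.00829) and Nr1d2 one of 0.39 ± 0.175 (unadjusted p = 0.0386), both with an adjusted p of 0.499, while Nr1d1 and Tef had slopes of -0.01 and -0.07. Arntl (-0.52, unadjusted p = 0.0403) and Cry1 (-0.60, unadjusted p = 0.0112), which were not called, had negative slopes, like their differences. The called genes' share was thus close to that of all genes, and in both sets most slopes had the sign opposite to the difference. Of the 63 genes called higher 20 had a positive slope (31.7%), and of the 27 called lower 6 had a negative one (22.2%).

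**Figure D4:**
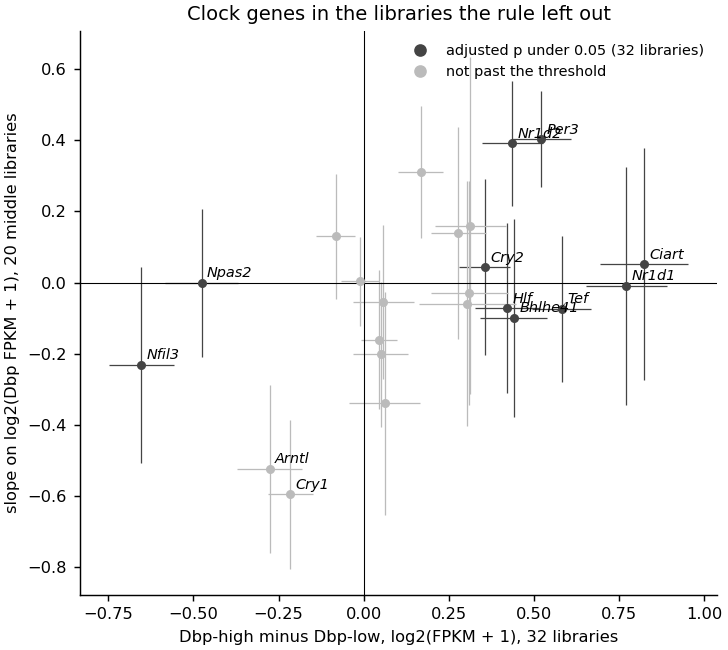
Each of 23 clock genes by its difference between Dbp-high and Dbp-low libraries (horizontal axis, log2(FPKM + 1), 32 libraries) and its slope on log2(Dbp FPKM + 1) in the 20 middle libraries (vertical axis); bars are SE and dark points passed an adjusted p of 0.05 in the 32 libraries. Per3 and Nr1d2 have positive slopes of 0.40 and 0.39, and the slopes of Nr1d1, Tef and Ciart lie near 0.

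Beyond the core clock, none of the listed outputs of the clock was called. Of 9 tested rhythmic outputs of many organs none passed the threshold, with 2 below an unadjusted p of 0.05 (limma), 7 positive and 2 negative differences and a median of 0.13, against -0.01 over all genes. Usp2, a ubiquitin protease with a strong daily rhythm in mouse tissues, had a difference of 0.38 ± 0.148 (adjusted p = 0.143). Tsc22d3, the glucocorticoid-induced leucine zipper, had 0.29 ± 0.0900 (adjusted p = 0.0916). None of 8 muscle outputs (median 0.04, 0 at an unadjusted p under 0.05), 14 glucocorticoid-responsive genes (median 0.01, 3 unadjusted), 17 temperature-responsive genes (median -0.06, 4 unadjusted) or 17 immediate early genes (median -0.03, 0 unadjusted) was called. The same held for 20 ribosome biogenesis genes (median -0.04, 1 unadjusted) and 19 cell cycle genes (median -0.07, 1 unadjusted).

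Outside the clock lists, Angptl7, a secreted angiopoietin-like protein (chr4:148495183-148500460), was the called gene with the widest positive difference among those with a mean of at least 5 FPKM. It ran from 50.4 over a median of 86.8 to 244 FPKM in Dbp-high libraries, against 14.5, 46.6 and 86.7 FPKM in Dbp-low libraries, a difference of 1.37 ± 0.235 (adjusted p = 0.00505). It lies within Mtor on the other strand. Rian, an imprinted long noncoding RNA expressed from the maternal allele (chr12:109603940-109661716), had 3.30 to 8.53 FPKM in Dbp-high libraries (median 5.22), against 5.71 to 18.2 FPKM in Dbp-low libraries (median 8.95), a difference of -0.75 ± 0.127 (adjusted p = 0.00461). Its groups did not overlap in 1 treatment, and those of Angptl7 in 2. Of all genes tested, 12.7% showed no overlap in at least 1 treatment and 0.826% in at least 2. Fabp6, a bile acid-binding protein named here after its values were seen, averaged 2.30 ± 0.633 FPKM in Dbp-high and 1.22 ± 0.471 FPKM in Dbp-low libraries (SD, n = 16 each), a difference of 0.57 ± 0.0987 (adjusted p = 0.00505).

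The other called genes with wide positive differences were Clec3a, a lectin of cartilage (1.36 ± 0.329, adjusted p = 0.0492), Fxyd2, a subunit of the sodium pump (1.01 ± 0.212, adjusted p = 0.0346), Ppp1r1b, an inhibitor of protein phosphatase 1 (1.00 ± 0.193, adjusted p = 0.0246), Atp6v1b1, a proton pump subunit of acid-secreting cells (0.86 ± 0.206, adjusted p = 0.0485), Tmem213 (0.81 ± 0.171, adjusted p = 0.0346), the beta-defensin Defb14 (0.80 ± 0.188, adjusted p = 0.0459) and Krt19, a keratin of simple epithelia (0.78 ± 0.163, adjusted p = 0.0346). Fxyd2, for example, had 64.1 to 269 FPKM in Dbp-high libraries (median 170), against 32.4 to 243 FPKM in Dbp-low libraries (median 81.8), so the groups overlapped widely. Lower in Dbp-high paws were Nid1, which encodes a basement membrane protein (-0.63), the ubiquitin ligase Rnf122 (-0.41), the actin regulator Eps8 (-0.32), the magnesium transporter Nipa2 (-0.32), the GTPase-activating protein Arhgap18 (-0.32), the elongation factor Ell2 (-0.25) and the polycomb ubiquitin ligase Rnf2 (-0.23), with adjusted p between 0.0346 (Nid1, Nipa2) and 0.0496 (Rnf2). None of these 14 genes was called in all 32 fits that left out a library, and Clec3a was called in 7 of them. Only Clec3a (1.27) and Rnf122 (-0.06) of these 14 had a slope in the middle libraries of the same sign as their difference. The slopes of the others had the opposite sign, for example -0.94 for Krt19 and 0.41 for Ell2.

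Lists of inflammatory genes and of cell type markers were set beside these results. No member of 18 TNF and NF-kB response genes was called, with 8 at an unadjusted p under 0.05, and all 18 differences were negative (median -0.41). All 18 interferon-induced genes were negative, with a median of -0.40 and 16 at an unadjusted p under 0.05, and none was called. All 12 neutrophil markers were negative (median -0.69, 4 unadjusted) and all 12 macrophage markers (median -0.39, 7 unadjusted), again with none called. The mean log2 level of the neutrophil list ran from 1.45 to 3.82 in Dbp-high and from 1.46 to 5.45 in Dbp-low libraries, and that of the macrophage list from 3.92 to 5.13 in Dbp-high and from 3.89 to 6.43 in Dbp-low libraries. The lowest libraries of both groups were alike and the highest Dbp-low libraries stood above all Dbp-high ones. Il6, the cytokine that anti-IL-6 antibody binds, averaged 0.676 ± 0.610 FPKM in Dbp-high and 4.10 ± 5.09 FPKM in Dbp-low libraries (SD, n = 16 each), with a difference of -0.998 (adjusted p = 0.123).

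Over the 32 libraries together, skin, muscle and nerve markers had the opposite sign, though muscle did not in each treatment. All 12 epidermal markers were positive (median 0.52, 9 unadjusted), with list levels of 9.13 to 10.3 in Dbp-high and 7.62 to 9.94 in Dbp-low libraries, and none was called. All 17 skeletal muscle markers were positive (median 0.48, 0 unadjusted), with list levels of 7.21 to 9.92 in Dbp-high and 6.41 to 10.3 in Dbp-low libraries. The mean muscle level was lower in Dbp-high than in Dbp-low paws under anti-TNF (8.15 against 8.43) and in the combination (8.44 against 9.09). It was higher under anti-IL-6 (8.79 against 7.23) and in the isotype group (9.42 against 8.39). Of 8 Schwann cell markers all were positive (median 0.36, 6 unadjusted) and Sox10, the transcription factor of the neural crest and Schwann cells, was called (0.44 ± 0.0955, adjusted p = 0.0369). The list levels were 4.27 to 5.11 in Dbp-high and 3.78 to 4.90 in Dbp-low libraries. The mean was higher in Dbp-high paws in all 4 treatments, but in the combination only 4.69 against 4.68. Sox10 differed by 0.26 (anti-TNF), 0.87 (anti-IL-6), 0.06 (combination) and 0.57 (isotype). The limma F test of the interaction gave Sox10 an unadjusted p of 0.00867 and did not call it. Its slope in the middle libraries was -0.68 (limma, unadjusted p = 0.0396). All 6 erythroid markers were positive (median 0.81, 1 unadjusted), 8 of 9 adipocyte markers were positive (median 0.30, 0 unadjusted), 11 of 12 fibroblast markers were negative (median -0.37, 1 unadjusted) and 9 of 10 endothelial markers were negative (median -0.32, 5 unadjusted). These signs did not hold in each treatment. In the combination the mean erythroid (2.58 against 2.63) and adipocyte (4.65 against 5.00) levels were lower in Dbp-high than in Dbp-low paws. Under anti-TNF the mean fibroblast (7.50 against 7.10) and endothelial (4.01 against 3.92) levels were higher in Dbp-high paws. In the other treatments these 4 list means had the sign of their medians. The T cell (median -0.19, 1 unadjusted), B and plasma cell (median 0.12, 0 unadjusted), chondrocyte (median 0.04, 0 unadjusted) and osteoblast (median -0.00, 0 unadjusted) lists had no called member. No marker of these lists was at 0 in all 32 libraries.

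A list of gland epithelium markers was written after the called genes had been seen, so its count supports nothing. Of its 10 tested members 6 were called, Fxyd2, Krt19, Foxi1, Krt8, Wfdc2 and Krt7, and all 10 were positive (median 0.67), with list levels of 2.70 to 3.77 in Dbp-high and 2.22 to 3.77 in Dbp-low libraries. Foxi1, a forkhead factor of ion-transporting epithelial cells, averaged 3.57 ± 1.47 FPKM in Dbp-high and 1.71 ± 1.28 FPKM in Dbp-low libraries (SD, n = 16 each). The fit with tissue scores as covariates shows how far the called genes move with these markers. With muscle and epidermis scores 17 genes were called, with the neutrophil score 8, and with Schwann cell and gland scores, added after the data were seen, 1, which was Arntl. The median size of the difference over the 10 clock genes was 0.50 without a score, 0.46 with the scores for muscle and epidermis and again 0.46 with that for neutrophils, and over the other 80 called genes it was 0.44, 0.27 and 0.36. Nr1d1, Tef, Ciart, Per3 and Nfil3 were called with the neutrophil score and with the muscle and epidermis scores. With Schwann cell and gland scores none of these 5 was called, at differences of 0.46, 0.52, 0.69, 0.58 and -0.45 and adjusted p between 0.164 and 0.986.

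**Figure D5:**
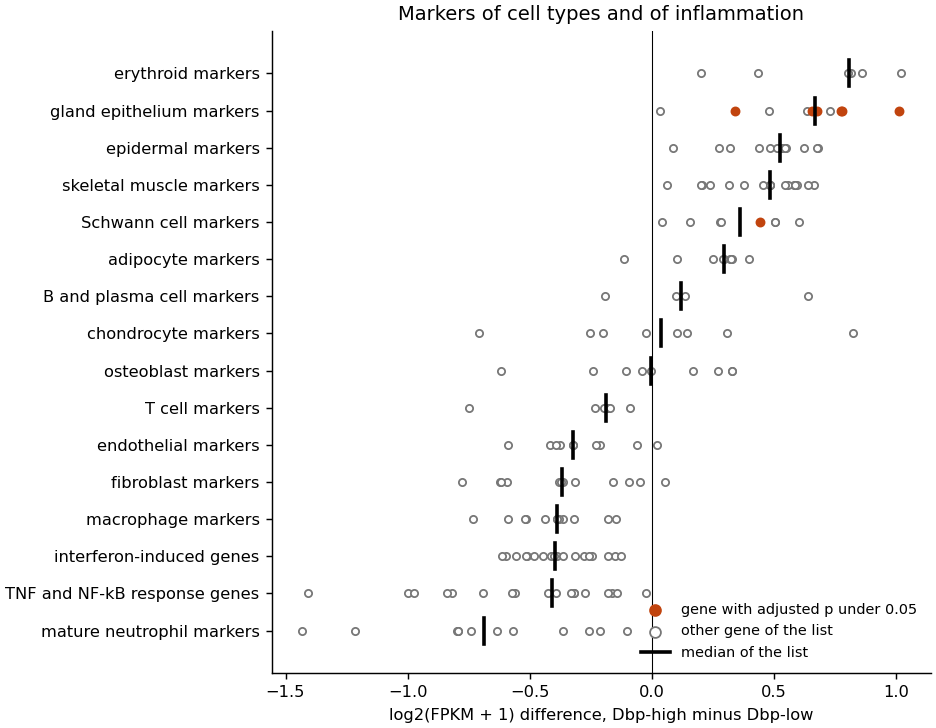
Difference between Dbp-high and Dbp-low libraries on the log2(FPKM + 1) scale (horizontal axis) for every tested gene of the cell type, inflammation and gland lists (rows); black marks are list medians and filled points passed an adjusted p of 0.05. Neutrophil markers (median -0.69) lie lowest and erythroid markers (median 0.81) highest.

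The libraries also carry index numbers in their titles, which were cut into 5 stretches where the mouse numbers start again from a low value. Within each stretch mouse numbers ascend except for isotype replicate 10 (mouse 52) in the third, and these stretches were used as a run. No label names a run, and all titles carry the same lane tag. Dbp-high and Dbp-low libraries numbered 0 and 2 in run 1, 5 and 1 in run 2, 3 and 5 in run 3, and 4 and 4 in runs 4 and 5. With run as a covariate 0 genes were called by limma, and 1201 had an unadjusted p below 0.05. The differences were then 0.57 ± 0.103 for Tef (adjusted p = 0.118), 0.52 ± 0.102 for Per3 (adjusted p = 0.121), 0.68 ± 0.143 for Nr1d1 (adjusted p = 0.200), 0.75 ± 0.160 for Ciart (adjusted p = 0.214) and -0.56 ± 0.112 for Nfil3 (adjusted p = 0.121). In the 6 combinations of run and treatment that hold both levels, the difference was positive in 6 of 6 for Tef (0.13 to 1.02), Nr1d1 (0.38 to 1.21), Ciart (0.19 to 1.40) and Per3 (0.16 to 1.04), and negative in 6 of 6 for Nfil3 (-0.87 to -0.19) and Rian. Angptl7 was positive in 5 of 6. Each combination held 1 to 3 libraries per level, drawn from those on which these genes were called. The signs are therefore largely set by the same contrast and are a description. The share of all genes with such signs was not counted. Among the other called clock genes Cry2 and Hlf were positive in 6 of 6, Nr1d2 in 5 of 6 (lowest -0.31) and Bhlhe41 in 4 of 6 (lowest -0.40), and Npas2 was negative in 5 of 6 (highest 0.04). Mouse numbers, which the titles also give, averaged 29.8 in Dbp-high and 26.9 in Dbp-low libraries, a difference of 2.88 (permutation within treatments, two-sided, 100000 resamples, p = 0.0629).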

How the data were processed

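Whole front paw RNA was sequenced as stranded, paired-end libraries, 1 per mouse, per the labels' protocols. The authors deposited 1 table of FPKM values with 53431 features, of which 52244 are Ensembl genes; the unit was read from the values. DESeq2 is named in the submitters' processing notes with no version. The aligner, build, annotation and strand setting were not given in the sources used here. Reads of overlapping or antisense genes may therefore be counted together. Coordinates come from GENCODE M21 (GRCm38) for identifiers that matched with their version.

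Depth was inferred from steps of low values in single-exon genes of at least 400 bases. Within 0.05 of a step, 73.7% to 79.4% of low values came out whole, so counts were not rebuilt. Levels have no interval for counting error.

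Libraries were chosen by Dbp FPKM, 4 highest and 4 lowest per treatment. Genes were tested in R 4.3.3 by limma 3.58.1, its prior trended and robust, on log2(FPKM + 1) for genes with a mean of at least 1 FPKM over the 32 libraries, with treatment as covariate and Benjamini-Hochberg adjustment over all 14282 genes at 0.05. Differences understate the change of low genes. Errors of differences are SE and those of levels SD. The test was tried on simulated data. Named genes were the clock lists, the 8 highest and 8 lowest differences among called genes with a mean of at least 5 FPKM and the same sign in 4 treatments, and up to 3 called members of each other list. Usp2, Tsc22d3, Il6, Rpap3, Fabp6, Foxi1, Krt8, Wfdc2 and Krt7 were named outside this rule. Values of 2 tested clock genes are not reported here. The members and lists were chosen with earlier results of these data known. Alternatives were pseudocounts of 0.1 and 10, no filter, median-of-ratios scaling, covariates for run, mouse number and tissue scores, 3 or 6 libraries per level, a slope over 52 libraries, and leaving out treatments or libraries.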

Additional observations from a re-analysis of the deposited data

Results flagged for a closer look

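Each of Nr1d1, Tef, Ciart, Per3 and Nfil3 was looked at in the 8 groups of 4 libraries formed by treatment and Dbp level, 40 sets of 4 values in all. In 3 of them the library at one end stood further from the other 3 than Dixon's 95% critical value allows, and chance alone gives about 1 in 20. Ciart was at 20.3 FPKM in isotype Dbp-high replicate 5, above the other values of 9.52 to 10.3 FPKM. Tef was at 14.5 FPKM in anti-IL-6 Dbp-low replicate 13, below the other values of 17.1 to 17.4 FPKM. Nr1d1 was at 51.6 FPKM in combination Dbp-low replicate 5, below the other values of 82.2 to 85.98 FPKM. All 3 genes remained called without these libraries.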

How the results depend on the processing

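The count of genes called between Dbp-high and Dbp-low paws, 90, was 72 and 76 with pseudocounts of 0.1 and 10 and 85 without the anti-TNF treatment. It was 11 without the filter on low values, 17 with muscle and epidermis scores, 8 with the neutrophil score, 0 with index run (1201 at an unadjusted p under 0.05, limma), 5 with 3 libraries per level and treatment, 2 with 6, 26 as a slope over 52 libraries, 1 without the isotype treatment, 4 without anti-IL-6 and 4 without the combination. Median-of-ratios scaling gave 281 (137 higher, 144 lower, 89 of them shared, against 63 higher and 27 lower) and mouse number as a covariate 321 (243 higher, 78 lower, 88 shared). Chosen after the data were seen, the fit without isotype replicates 4 and 7 called 8, Schwann cell and gland scores 1, and the skeletal muscle score 184. Leaving out 1 library gave 8 to 665 genes. For anti-TNF the counts were 9 without replicate 2, 38 without 4, 648 without 5, 571 without 7, 59 without 9, 13 without 10, 56 without 11 and 143 without 13. For anti-IL-6 they were 10 without replicate 1, 8 without 2, 11 without 4, 9 without 6, 49 without 7, 665 without 9, 9 without 10 and 14 without 13. For the combination they were 34 without replicate 3, 8 without 5, 60 without 6, 309 without 7, 41 without 8, 43 without 9, 43 without 10 and 15 without 12, and for the isotype group 476 without replicate 1, 105 without 3, 11 without 4, 16 without 5, 17 without 6, 9 without 7, 11 without 10 and 65 without 12. Of the 90 genes 29 were called in at least 16 of these 32 fits. The cause of these shifts was not tested. None of the 27 called genes that the naming rule gave changed sign under any alternative run; Fabp6, Foxi1, Krt8, Wfdc2 and Krt7, named besides, were not followed there. The interaction and the slope in the middle libraries called 0 genes by limma under every alternative run on them. The difference in mouse number was 4.33 with 3 libraries per level (permutation p = 0.00919) and 1.29 with 6 (p = 0.412), against 2.88 with 4 (p = 0.0629). No paired analysis was possible because replicates were numbered in accession order, which links no mouse of 1 group to a mouse of another.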
